A study of Homo sapiens with 4 samples.

Results

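The genes described here are 10 components of the endoplasmic reticulum folding machinery and its stress sensors: HSPA5, HSP90B1, CALR, PDIA4, DNAJB9, HERPUD1, SDF2L1, XBP1, EDEM1 and ERN1. They were chosen by gene name for their function, with earlier results of these data known. All 10 were found among the 20024 genes of the count table. The cells were SJSA-1, a long-established line from a human osteosarcoma, and RNA-seq covered 2 control libraries and 2 libraries with knockdown of the zinc finger transcription factor ZNF217. The labels give no other treatment for either group, and they do not name the control or knockdown reagent. Whether replicates are separate cultures is not said, and the spread behind each p-value may therefore be technical.

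Proteins that enter the secretory pathway fold in the endoplasmic reticulum (ER) with the help of resident chaperones. When unfolded protein accumulates there, sensors in the ER membrane start the unfolded protein response, which raises the transcription of chaperones and of genes for ER-associated degradation (ERAD), the route by which misfolded proteins are returned to the cytosol and destroyed. The sensor IRE1, encoded by ERN1, cuts a short intron out of XBP1 messenger RNA, and the joined message encodes an active transcription factor. ATF6 is cut in the Golgi to release another transcription factor, and PERK, encoded by EIF2AK3, slows translation and favours synthesis of ATF4. Osteoblast-lineage cells secrete much matrix protein and depend on this machinery.

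The stretch of XBP1 that IRE1 removes is shown because its removal makes the message that encodes the active factor, and because gene-level counts cannot see it. It lies in coding sequence, at chr22:28796122-28796147 on the minus strand of GRCh38 in GENCODE release 29. The intron, in capitals, is 26 bases long, so its removal shifts the reading frame. Repeated bases at its ends allow 7 placements that give the same joined sequence. The placement printed is that of GENCODE, and it need not mark the bases at which IRE1 cuts. Each line gives 30 bases on either side.
XBP1 unspliced: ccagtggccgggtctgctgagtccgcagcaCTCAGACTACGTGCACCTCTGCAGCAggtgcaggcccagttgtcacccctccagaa
XBP1 spliced: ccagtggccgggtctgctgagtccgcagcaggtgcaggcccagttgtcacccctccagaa
Reads of both forms were counted together under XBP1, so its values below give the sum of the forms.

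Promoters of these genes share a documented control element. The ER stress response element, ERSE, is CCAAT and CCACG with 9 bases of any kind between them, and the related ERSE-II is ATTGG, any base, and then CCACG. Both strands of 250 bases before and 50 bases after each RefSeq gene start (GRCh38.p14) were searched, and promoters were found for all 10 genes. An ERSE was present for HSPA5, HSP90B1, CALR and XBP1, and an ERSE-II for HERPUD1 and SDF2L1. The windows of PDIA4, DNAJB9, EDEM1 and ERN1 held neither sequence. Of 35116 promoter windows of the same length in the table, 0.077% held an ERSE and 0.054% an ERSE-II. The core of another element of the response, TGACGTGG, was in 0.729% of windows and in those of 0 of the 10 genes. The 6 promoters are shown with the element in capitals, on the strand of the gene, because the 6 genes that hold one differ among themselves in the values that follow. HSP90B1 held 2 elements, given separately.
HSPA5 (chr9:125241346-125241455, minus strand): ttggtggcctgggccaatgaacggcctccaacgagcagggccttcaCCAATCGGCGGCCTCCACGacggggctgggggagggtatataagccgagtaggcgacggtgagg
HSP90B1, farther from the start (chr12:103930211-103930239, plus strand): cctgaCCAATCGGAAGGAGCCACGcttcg
HSP90B1, nearer to the start (chr12:103930316-103930344, plus strand): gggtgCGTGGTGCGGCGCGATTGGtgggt
CALR (chr19:12938359-12938468, plus strand): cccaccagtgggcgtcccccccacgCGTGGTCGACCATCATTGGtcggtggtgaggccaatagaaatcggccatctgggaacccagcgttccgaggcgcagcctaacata
XBP1 (chr22:28800598-28800707, minus strand): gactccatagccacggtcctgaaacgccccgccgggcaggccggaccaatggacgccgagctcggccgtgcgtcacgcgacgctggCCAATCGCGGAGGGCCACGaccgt
HERPUD1 (chr16:56931938-56932047, plus strand): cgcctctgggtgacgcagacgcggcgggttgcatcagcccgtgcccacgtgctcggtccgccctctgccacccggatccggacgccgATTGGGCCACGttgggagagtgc
SDF2L1 (chr22:21642064-21642173, plus strand): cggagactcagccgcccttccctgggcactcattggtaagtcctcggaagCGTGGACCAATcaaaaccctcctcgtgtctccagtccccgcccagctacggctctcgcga
In CALR, SDF2L1 and the nearer HSP90B1 element the sequence reads on the opposite strand. A match is a description of these letters, and binding was not measured.

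Libraries held 21466327 to 24487126 counts. Levels are given as CPM, each count relative to the total of its library, with totals scaled by the TMM method, and n is 2 libraries for each mean and SD. ZNF217 was at 66.2 and 73.4 CPM in control and at 37.5 and 31.9 CPM in knockdown, the direction its labels state, with an adjusted p of 0.207 by edgeR and 0.0118 by DESeq2. The controls differed from each other more than the knockdown libraries did, with a biological coefficient of variation of 0.393 against 0.0783. Among markers of the line, MDM2 ranged from 30.4 to 46.3 CPM, CDK4 from 184 to 366 CPM and VIM from 2565 to 4264 CPM, while the osteoblast markers ALPL and COL1A2 were at most at 0.139 and 0.185 CPM, COL1A1 was at 3.51 to 17.1 CPM, RUNX2 at 11.2 to 17.4 CPM and SPARC at 1024 to 1295 CPM. The summed CPM of 7 blood cell markers was at most 1.13 and that of 4 endothelial markers at most 0.892. Of 5 epithelial markers only KRT8, at 768 to 845 CPM, and KRT18, at 935 to 1223 CPM, were above 1 CPM in any library. The summed CPM of the 5 was 1706 to 2068.

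None of the 10 genes passed the edgeR test of knockdown against control at an adjusted p of 0.05, beside 0% of all 12965 tested genes. The lowest adjusted p among them was 0.395, and the lowest among all genes was 0.11. At an unadjusted p under 0.05 the count was also 0 of 10, where 13% of tested genes passed, and DESeq2 called 0 of 10, beside 3.72% of genes (1.72% higher and 2% lower). In both knockdown libraries DNAJB9 lay above both controls, a placing seen in 25.4% of tested genes. CALR, HERPUD1 and ERN1 lay lower in both, as did 22.9% of genes. The other 6 overlapped between the groups, beside 51.7% of genes. By total counts EDEM1 also lay above both controls, as did 32% of genes, and by TPM, which divides counts by gene length, EDEM1 and PDIA4 did, as did 26.9% of genes. The same 3 genes lay below on both scales, beside 16.4% and 18.4% of genes. The median log2 fold change of the 10 was −0.07, against −0.01 for all tested genes. With so wide a spread between the controls, the missing calls do not show that knockdown left these genes as they were.

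**Figure D1:**
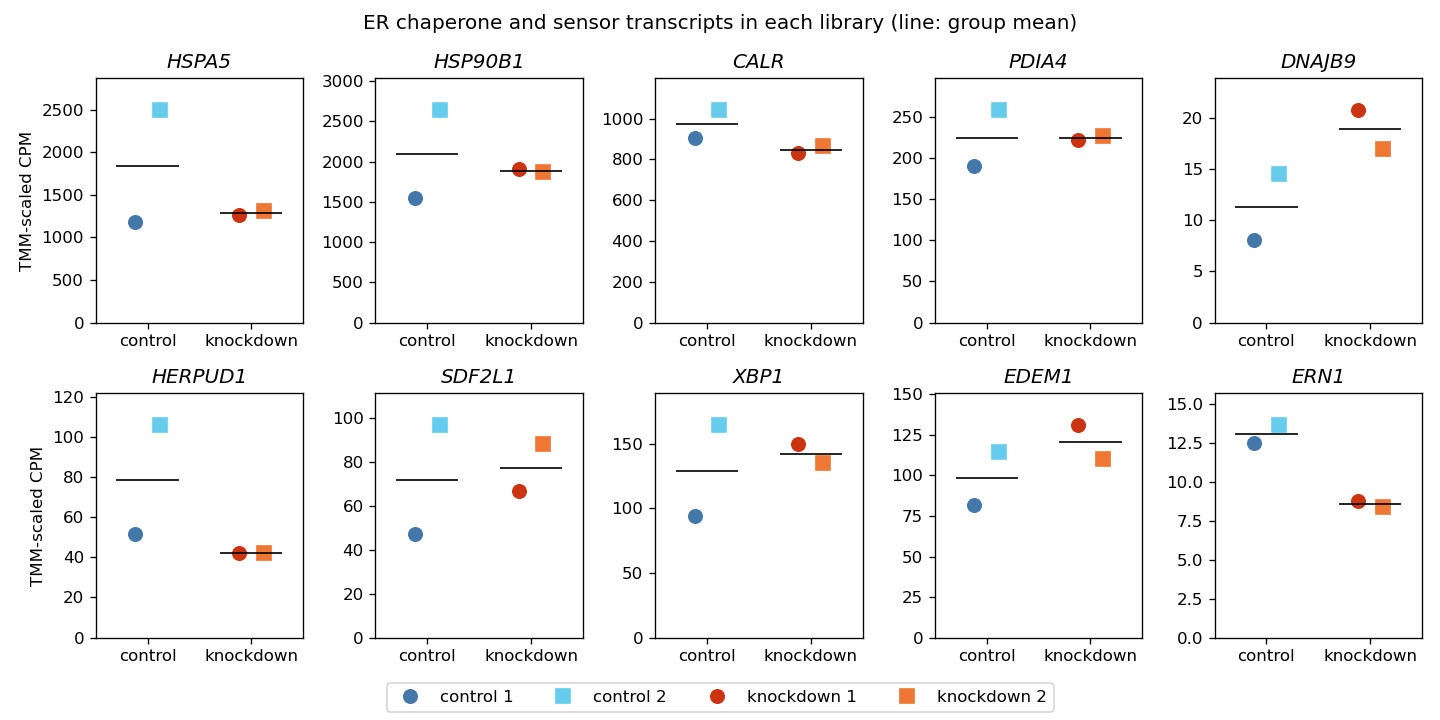
TMM-scaled CPM (vertical axis from 0, a separate scale for each gene) of the 10 genes in each control and knockdown library, with lines at the group means. Control replicate 2 sits above control replicate 1 in every panel, and the knockdown points lie below both controls for CALR, HERPUD1 and ERN1 and above both for DNAJB9.

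The sensor gene ERN1 was at 12.5 and 13.7 CPM in control and at 8.78 and 8.38 CPM in knockdown. Both knockdown libraries were below both controls, and the groups were apart by more than the spread within either. Its means were 13.1 ± 0.827 and 8.58 ± 0.284 CPM, which put knockdown at 65.7% of control. The log2 fold change was −0.61 ± 0.26 (SE), with a 95% interval from −1.26 to 0.05 (edgeR adjusted p = 0.41). ERN1 rested on 201 to 306 counts per library.

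XBP1, whose message ERN1 protein cleaves, was at 93.8 and 164 CPM in control and at 150 and 135 CPM in knockdown. Both knockdown libraries lay between the controls. The log2 fold change of the summed forms was 0.14 ± 0.30 (SE), with an interval from −0.63 to 0.92. Among the other sensors, ATF6 was at 54.5 and 42.9 CPM in control and at 62.4 and 68.7 CPM in knockdown. EIF2AK3 was at 11.6 and 9.32 CPM in control and at 17.3 and 13.9 CPM in knockdown. Thus ATF6 and EIF2AK3 lay above both controls in knockdown, as did 25.4% of tested genes, while ERN1 lay below, as did 22.9%. None of the 3 passed the test (edgeR adjusted p = 0.458 for ATF6 and 0.451 for EIF2AK3). ATF6B, a relative of ATF6, had a log2 fold change of 0.05. The difference between these sensors was not tested.

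HSPA5 encodes the ER's main HSP70-type chaperone, which binds nascent chains and also holds the sensors inactive. It was at 1185 and 2494 CPM in control and at 1260 and 1314 CPM in knockdown. Control replicate 2 alone stood high, and the other 3 libraries lay close together. The log2 fold change was −0.52 ± 0.36 (SE), with an interval from −1.44 to 0.41. HSP90B1, the ER member of the HSP90 family, was at 1542 and 2637 CPM in control and at 1910 and 1865 CPM in knockdown, so that both knockdown libraries lay between the controls. Its log2 fold change was −0.15, with an interval from −0.86 to 0.56.

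CALR encodes calreticulin, a calcium-binding lectin chaperone of glycoproteins. It was the steadiest abundant gene of the group, at 905 and 1041 CPM in control and at 831 and 865 CPM in knockdown. Both knockdown libraries were below both controls by a margin smaller than the gap between the controls. The log2 fold change was −0.20, with an interval from −0.61 to 0.21. PDIA4, a protein disulfide isomerase, was at 190 and 258 CPM in control and at 222 and 226 CPM in knockdown. Its group means were the same to within 0.1 CPM, at 223.8 ± 48.2 and 223.9 ± 3.16 CPM, and the interval of the log2 fold change ran from −0.54 to 0.54.

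The cochaperones were placed differently. DNAJB9, a J-domain protein that assists HSPA5 and holds IRE1 in check, was at 8.04 and 14.5 CPM in control and at 20.8 and 17.0 CPM in knockdown. Both knockdown libraries were above both controls, the one such case among the 10 on the TMM scale. The means were 11.3 ± 4.6 and 18.9 ± 2.65 CPM, a ratio of 1.67, and the log2 fold change was 0.74 with an interval from −0.18 to 1.66 (edgeR adjusted p = 0.46). DNAJB9 overlaps THAP5 and PNPLA8 on the opposite strand, so with the strand setting not given its reads cannot be fully told apart from theirs. The same limit holds for HSP90B1, CALR and EDEM1, which also overlap opposite-strand genes, and XBP1 has 1 copy named in GENCODE. SDF2L1, which works with HSPA5 and J-domain proteins, was at 47.2 and 96.6 CPM in control and at 66.5 and 87.9 CPM in knockdown. It was the gene of the 10 whose knockdown libraries differed most, and both lay between the controls.

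The means of the ERAD genes HERPUD1 and EDEM1 lay on opposite sides of control. HERPUD1, a membrane protein that organises the ubiquitin ligase complex of ERAD, was at 51.5 and 106 CPM in control and at 42.1 and 42.0 CPM in knockdown. The knockdown libraries were nearly equal and below both controls, of which replicate 2 was 2.05-fold above replicate 1. Knockdown was at 53.5% of control, with a log2 fold change of −0.90 ± 0.37 (SE) and an interval from −1.84 to 0.03 (edgeR adjusted p = 0.395). EDEM1, a lectin that hands misfolded glycoproteins to ERAD, was at 82.0 and 114 CPM in control and at 131 and 110 CPM in knockdown. Its groups overlapped, and its log2 fold change was 0.29 with an interval from −0.31 to 0.90.

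The order of levels between genes is given in TPM, which takes gene length into account. HSP90B1, HSPA5 and CALR were the most abundant, with 4-library means of 1320, 1230 and 1055 TPM and overlapping ranges. They made up 82.1% to 85.8% of the summed TPM of the 10 genes in a library. SDF2L1 and PDIA4 followed at 219 and 213 TPM, also with overlapping ranges. XBP1 came next at 140 TPM, apart from PDIA4 and EDEM1 but with a range that overlapped that of SDF2L1. EDEM1 at 51.2 TPM overlapped with HERPUD1 at 36.6 TPM, and HERPUD1 with DNAJB9 at 18.8 TPM. ERN1, the sensor, was last at 3.13 TPM and apart from all others. By mean TPM over all 20024 genes, HSP90B1 ranked 100 and ERN1 ranked 10383.

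**Figure D2:**
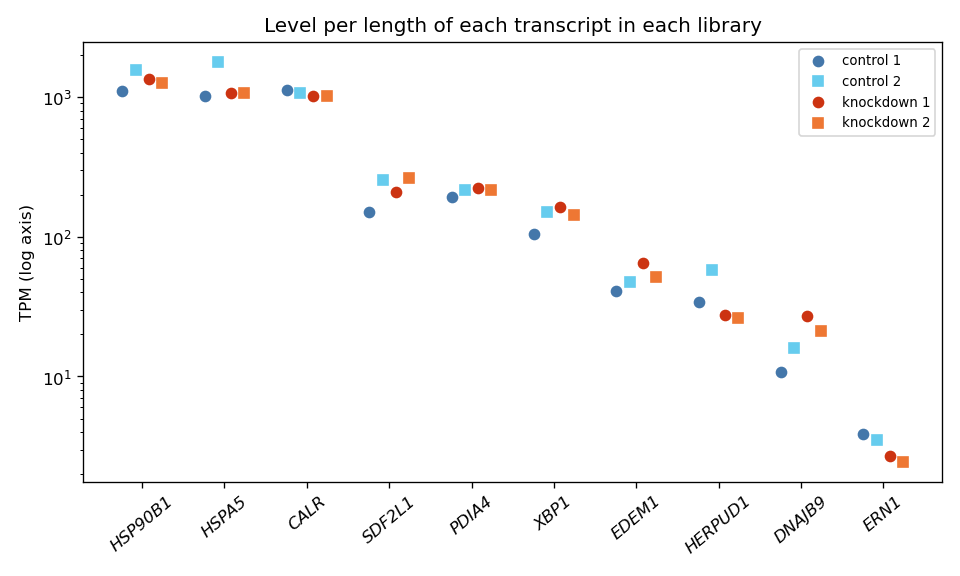
TPM (log axis) of the 10 genes in each library, in order of the 4-library mean. The chaperones HSP90B1, HSPA5 and CALR sit at or above 1012 TPM in every library, and ERN1 sits between 2.45 and 3.87 TPM.

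The controls differed from each other across this set of genes. On the TMM scale control replicate 2 exceeded control replicate 1 for all 10 genes, where 49.9% of tested genes were. Of the 10, 6 were at least 1.5-fold higher, where 21.1% of tested genes were: HSPA5, HSP90B1, DNAJB9, HERPUD1, SDF2L1 and XBP1. The median log2 difference between the controls was 0.79 for the 10 genes and −0.00 for all tested genes. Scaling by total counts left 9 of 10 higher, with ERN1 reversed, beside 42.1% of genes. TPM left 8 of 10, with CALR and ERN1 reversed, beside 35% of genes. The growth-response genes FOS and EGR1, singled out after their values were seen, were also higher in control replicate 2, FOS at 724 CPM against 21.4 CPM in control replicate 1 and EGR1 at 518 against 22.2 CPM. Whether that difference and the one in ER genes are linked was not tested. The knockdown libraries lay within 1.5-fold of each other for all 10 genes, as for 97.7% of tested genes.

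Set against each control in turn, the same knockdown values lay on opposite sides for HSPA5, HSP90B1, PDIA4, SDF2L1 and XBP1. Both knockdown libraries were above control replicate 1 for 7 of 10 genes and below it for 3, beside 43.4% and 42.4% of tested genes. They were above control replicate 2 for 1 of 10 genes and below it for 8, beside 46.8% and 43.6% of tested genes. Without control replicate 2, edgeR called DNAJB9, SDF2L1, XBP1, EDEM1 and HSP90B1 higher and ERN1 lower in knockdown, beside 34.6% of genes called, 18% higher and 16.6% lower. Without control replicate 1, it called HERPUD1, HSPA5, ERN1, HSP90B1, SDF2L1 and CALR lower and 0 higher, beside 55.9% of genes called, 28% lower and 27.9% higher. Leaving out knockdown replicate 1 gave 0 calls among the 10, beside 0.0908% of genes called higher and 0.0303% lower. Leaving out knockdown replicate 2 also gave 0, beside 0.0904% higher and 0.0226% lower. HSP90B1 and SDF2L1 were thus called in opposite directions, beside 5.8% of genes tested in both fits. ERN1 was called the same way in both, beside 16.3% of genes. Its log2 fold change was −0.54 without control replicate 2 (adjusted p = 0.0219) and −0.68 without control replicate 1 (adjusted p = 0.00148). In these fits the single control is assumed to vary as little as the knockdown libraries do, while the controls varied more.

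**Figure D3:**
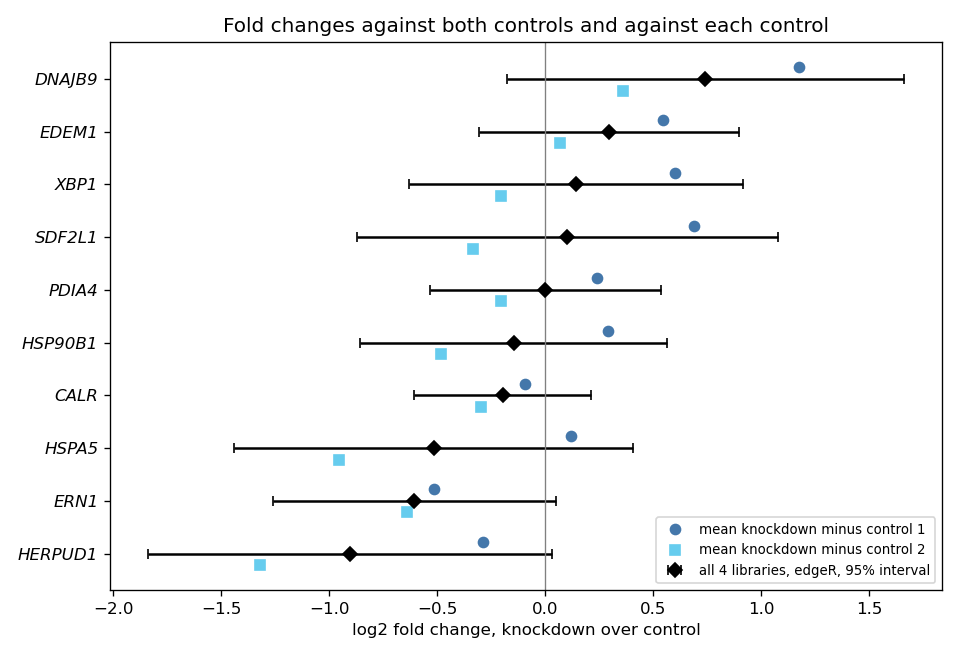
Log2 fold change of knockdown over control for the 10 genes, from edgeR on all 4 libraries with 95% intervals (diamonds), and the mean of the knockdown libraries minus control replicate 1 (circles) or control replicate 2 (squares). All intervals include 0, and circles and squares lie on opposite sides of 0 for HSPA5, HSP90B1, PDIA4, SDF2L1 and XBP1.

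The genes whose values over the 4 libraries lay closest to those of HSPA5, by the distance of log2 CPM about each gene's own mean, were KDM6B, MOB2, SPSB3, MAP3K12 and OCIAD2, out of 9323 genes with at least 10 CPM. In each of them control replicate 2 was the highest library. KDM6B was at 16.1 and 33.0 CPM in control and at 16.6 and 17.6 CPM in knockdown. With 4 libraries this likeness records little more than that one control stands high.

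Among 25 other ER chaperones and disulfide isomerases, 11 lay above both controls in both knockdown libraries and 1 below. Of all tested genes 25.4% lay above and 22.9% below. The median log2 fold change of the list was 0.12. None passed by edgeR or DESeq2. DNAJC3, a J-domain cochaperone that also inhibits PERK, was at 48.2 and 42.0 CPM in control and at 63.5 and 66.6 CPM in knockdown. FKBP14, a prolyl isomerase of the ER that acts on collagen, was at 27.9 and 27.2 CPM in control and at 38.6 and 38.5 CPM in knockdown. The secreted stress factor MANF was at 191.7 and 219.5 CPM in control and at 219.5 and 239.3 CPM in knockdown. In this list control replicate 2 exceeded control replicate 1 for 16 of 25 genes, beside 49.9% of tested genes.

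Of 21 other ERAD genes 10 lay above both controls and 2 below, beside 25.4% and 22.9% of all tested genes. The median was 0.14, with 0 calls by edgeR or DESeq2. The membrane ubiquitin ligase gene MARCHF6 was at 102 and 116 CPM in control and at 66.5 and 59.9 CPM in knockdown (edgeR adjusted p = 0.238). EDEM2, a relative of EDEM1, was at 33.2 and 56.9 CPM in control and at 72.7 and 68.1 CPM in knockdown. Of 12 tested other sensors and regulators of the response, 4 lay above and 3 below, beside the same shares of all genes. DESeq2 called 1, lower, beside 2% of genes. It was CREB3L1, an ER-anchored transcription factor that drives collagen secretion in osteoblasts, at 6.66 and 8.61 CPM in control and 2.34 and 2.50 CPM in knockdown (DESeq2 adjusted p = 0.0113, edgeR adjusted p = 0.227).

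The PERK-ATF4 arm had a median of −0.50 over 15 tested genes. Of these 5 lay below both controls and 2 above, beside 22.9% and 25.4% of all tested genes. DESeq2 called 1, VLDLR, lower, beside 2% of genes. ATF4, the transcription factor of this arm, was at 727 and 840 CPM in control and at 433 and 482 CPM in knockdown, a log2 fold change of −0.78 (edgeR adjusted p = 0.229, DESeq2 adjusted p = 0.0595). ATF4 has 4 processed copies named in GENCODE, so its count is uncertain. Its target DDIT3, the stress gene known as CHOP, was at 23.6 and 32.9 CPM in control and at 17.56 and 21.97 CPM in knockdown. The amino acid transporter subunit SLC3A2 lay the other way, at 303 and 234 CPM in control and at 354 and 416 CPM in knockdown. The median of the list was −0.25 when control replicate 2 was left out and −0.22 by limma on log2(TPM + 1).

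**Figure D4:**
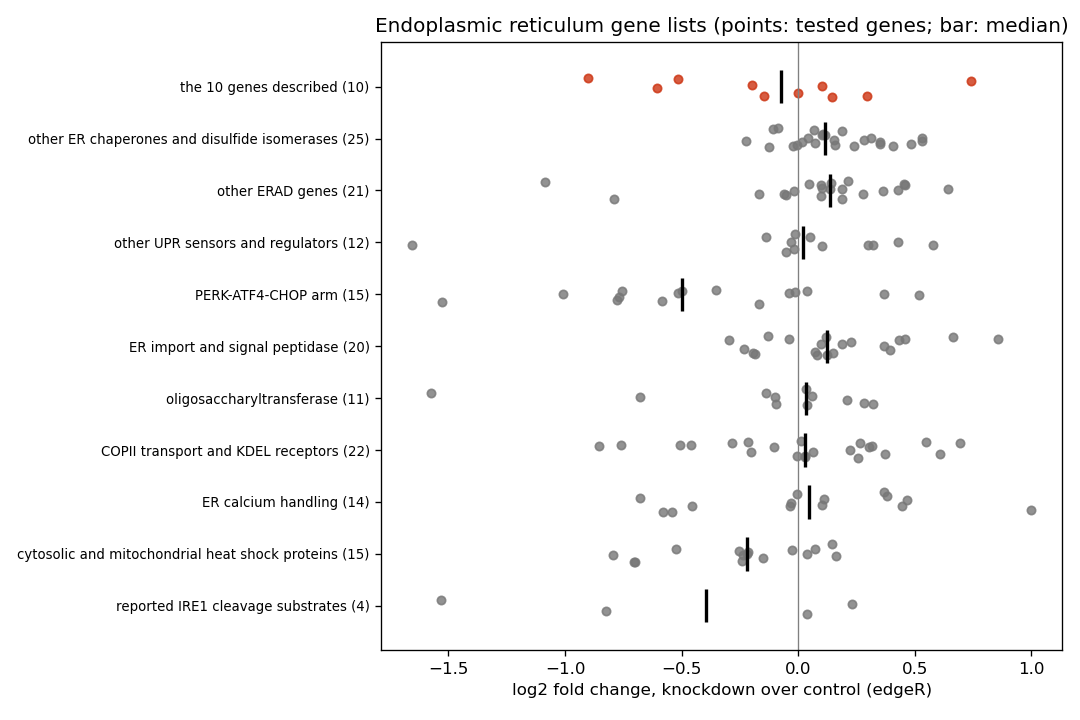
Log2 fold change of knockdown over control from edgeR for the 10 genes (red) and for the tested genes of 10 related lists (grey), with the number tested in brackets and bars at the medians. The medians run from −0.50 for the PERK-ATF4 arm to 0.14 for other ERAD genes, and the 10 genes span −0.90 to 0.74.

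Genes of protein entry into the ER had a median of 0.12 over 20 genes, with 8 above both controls and 2 below. Of all tested genes 25.4% lay above and 22.9% below. SEC61A1, the channel subunit, was at 450 and 345 CPM in control and at 530 and 563 CPM in knockdown. SEC11C, a signal peptidase subunit, was at 65.9 and 51.9 CPM in control and at 95.8 and 90.9 CPM in knockdown. Among 11 oligosaccharyltransferase genes, which attach glycans, the median was 0.03. Of these 4 lay above both controls and 2 below, beside 25.4% and 22.9% of all tested genes. DESeq2 called OSTC lower (adjusted p = 6.17e-07), at 122 and 132 CPM in control and at 44.8 and 40.1 CPM in knockdown, where edgeR gave an adjusted p of 0.146. GENCODE names 6 copies of OSTC, so its count is uncertain. STT3B, a catalytic subunit, was at 222 and 184 CPM in control and at 140 and 114 CPM in knockdown. MAGT1 lay the other way, at 93.4 and 88.9 CPM in control and at 122.9 and 104.5 CPM in knockdown.

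The KDEL receptors return escaped ER chaperones from the Golgi. KDELR1 was at 163 and 211 CPM in control and at 133 and 139 CPM in knockdown. KDELR2 was at 194 and 248 CPM in control and at 190.4 and 190.5 CPM in knockdown. On the TMM scale both genes lay below both controls. For KDELR2 this was narrow, with mean knockdown minus control replicate 1 at −0.03 in log2. KDELR3 overlapped between the groups, with a log2 fold change of 0.26. The list of 22 transport genes that holds them had 7 above both controls and 7 below, beside 25.4% and 22.9% of genes. Its median was 0.03. PREB and SEC23B, which act in COPII coat assembly, were higher in both knockdown libraries, PREB at 62.1 and 61.1 CPM in control and 98.6 and 101 CPM in knockdown. TMED10, a cargo receptor, was at 241 and 222 CPM in control and at 130 and 126 CPM in knockdown. It was the 1 gene of the list that DESeq2 called, lower, beside 2% of genes (DESeq2 adjusted p = 0.0205, edgeR adjusted p = 0.206). TMED10 has 2 named copies and an overlapping antisense gene. ER calcium-handling genes had a median of 0.05 over 14 genes, with 5 above both controls and 2 below, beside the same shares of all genes. NUCB2, a calcium-binding protein, was at 50.5 and 79.4 CPM in control and at 137 and 123 CPM in knockdown. The 2 below were RCN2 and ITPR3. RCN2 was at 97.3 and 119 CPM in control and at 75.6 and 69.2 CPM in knockdown. ITPR3 was at 134 and 168 CPM in control and at 107.9 and 112.5 CPM in knockdown.

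Heat shock genes outside the ER had a median of −0.22 over 15 genes. Of these 8 lay below both controls and 1 above, beside 22.9% and 25.4% of all tested genes, with 0 calls by edgeR or DESeq2. DNAJB1, a cytosolic partner of HSP70 that heat shock induces, was at 82.4 and 92.8 CPM in control and at 52.7 and 54.8 CPM in knockdown. HSPD1, the mitochondrial chaperonin, was at 1811 and 1357 CPM in control and at 1093 and 1108 CPM in knockdown, with 17 named copies that could share its reads. Of 4 tested messages reported as direct substrates of IRE1, 1 lay above both controls and 2 below, beside 25.4% and 22.9% of genes. COL6A1, a collagen chain, was at 521 and 1078 CPM in control and at 278 and 275 CPM in knockdown, and DESeq2 called it lower (adjusted p = 0.0034, edgeR adjusted p = 0.238).

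Beyond the 10 genes, 12 tested genes had an ERSE in the promoter window. Of these 5 lay above both controls and 2 below, beside 25.4% and 22.9% of all tested genes. Their median log2 fold change was 0.25, and 0 were called by edgeR. FICD, an ER enzyme that modifies HSPA5, was at 4.44 and 4.15 CPM in control and at 8.47 and 8.13 CPM in knockdown. The lectin chaperone gene CANX differed from its relative CALR between the controls, at 936 CPM in replicate 1 and 395 CPM in replicate 2, with 1018 and 904 CPM in knockdown. These 12 genes had a median log2 difference between the controls of 0.05, with 8 higher in control replicate 2, beside 49.9% of tested genes. Another 12 tested genes held an ERSE-II, 4 above both controls and 3 below, with a median log2 fold change of 0.02. Among them HYOU1, an exchange factor of HSPA5, was at 300.3 and 305 CPM in control and at 333 and 341 CPM in knockdown.

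The authors' deposited table of DESeq2 results gives log2 fold changes for the same genes, turned here to knockdown over control. So turned, ZNF217 has −0.56 there with a DESeq2 adjusted p of 0.622, where edgeR on these 4 libraries gave −1.01. In the authors' deposited table PDIA4 has 0.87 with a standard error of 0.34 and an adjusted p of 0.228, and EDEM1 has 0.68 with an adjusted p of 0.454. For 5 of the 10 genes the authors' deposited table has the sign opposite to that computed from these 4 libraries, with HSPA5 at 0.35, HSP90B1 at 0.30, CALR at 0.20, ERN1 at 0.08 and XBP1 at −0.23. In the authors' deposited table the mean normalized count of ERN1 is 984, while no library here has more than 306 counts of it. It is not known here from which libraries the authors' deposited table was made.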

How the data were processed

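Per the submitters' processing notes, reads were processed with Trimmomatic, HISAT2, Subread and DESeq2 on GRCh38, without versions. The authors deposited whole-number counts per gene for each library. They also deposited a signal named as TPM, which equals count over gene length scaled to 10 times the usual sum, and which was divided by 10 here. The authors' deposited mean normalized counts, log2 fold changes, test scores, p-values and adjusted p-values were only quoted.

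The 10 genes and all lists were chosen with earlier results of these data known. Of 20024 genes with counts, 12965 were left by the default low-count filter and entered the edgeR test (version 4.0.16, R 4.3.3, quasi-likelihood, TMM scaling, no covariate, two-sided, Benjamini-Hochberg adjustment over all of them, minimum count 10 and minimum total 15). Intervals are 95% intervals of that fit. DESeq2 1.42.0 and limma 3.58.1 were alternatives. Of 163 list symbols 162 were found. Genes named were the 10, ZNF217, the 3 genes of each list with the smallest p, 8 fixed by name and the 5 nearest to HSPA5. Not all are printed. ATF6B, a list gene outside these rules, was named in addition, as were the cell markers. FOS, EGR1, FICD, CANX and HYOU1 were chosen after their values were seen. Differences between single libraries use log2(CPM + 0.5). Positions came from GENCODE 29 and promoters from RefSeq (GRCh38.p14). Totals were 21466327 to 24487126 counts. The test scripts were tested on simulated data. Figures were drawn with matplotlib 3.10.9.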

Additional observations from a re-analysis of the deposited data

How the results depend on the processing

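The control libraries limit every statement on the 10 genes. The count of genes called by edgeR, 0 with all libraries (1690 at an unadjusted p under 0.05), was 0 with other size factors, total counts, a minimum count of 50, a threshold of 0.01, limma-voom or limma on log2(TPM + 1). It was 19 without a low-count filter, 496 by DESeq2, 169 by limma-voom with sample quality weights and 15 to 7439 with a library left out. The 10 genes gave 0 calls in each of these except where a control was left out. ZNF217 had a log2 fold change of −1.03 by DESeq2, past the threshold, and −1.13 to −0.89 with a library left out. The median of the 10 genes was −0.07, and −0.32 to 0.26 with a library left out. Genes above both controls numbered 1, or 1 to 7 with a control left out (beside 46.8% and 43.4% of all genes), 2 by total counts (EDEM1 added) and 3 by TPM (EDEM1 and PDIA4 added). Genes below numbered 3, or 3 to 8 (beside 42.4% and 43.6% of all genes). These counts were added after the data were seen. CALR, DNAJB9, HERPUD1, EDEM1 and ERN1 kept their sign in all 13 alternatives. Most of these refit the same libraries. For CALR, DNAJB9, HERPUD1 and ERN1 both knockdown libraries lay outside both controls, so leaving a library out could hardly turn the sign. The kept signs are therefore a description only. PDIA4, at 0.00, turned to −0.0186 with DESeq2 size factors, −0.0165 by DESeq2, −0.0087 without a filter, −0.0049 with a minimum count of 50, and between −0.21 and 0.24 with a library left out. With a library left out HSPA5 ranged from −0.97 to 0.12, HSP90B1 from −0.49 to 0.29, SDF2L1 from −0.33 to 0.71 and XBP1 from −0.22 to 0.60. Total counts moved the median of all genes from −0.01 to 0.11. With the replicate number as a block edgeR called 282 genes and none of the 10. The numbers are not known to pair the samples, and deviations of same-numbered libraries correlated at −0.03.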
